A study of Mus musculus with 12 samples.

Results

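Spleens of male and female mice were compared at 3-4 weeks of age, the age the design text places before puberty. The comparison rests on 4 of the 12 arrays of the series: 2 from males and 2 from females, chosen by the sex and age in their titles, with each difference taken as male minus female. It was read across autosomal genes, those on chromosomes 1 to 19. Of 7973 autosomal genes that the array names, 6358 were bright enough to be tested, and 4 of these passed the filter on low signal only through the male 3-4 week arrays. The other 8 arrays come from spleens of both sexes at 6-9 and 24-28 weeks, 2 per group, and are used for the same difference at a later age. They also enter the shared estimate of the spread, the filter on low signal and the choice of probe set for a gene. The labels give the sex, the age and the organ. They name no strain and no treatment, and do not say whether the 2 arrays of a group, replicates a and b, came from separate animals. P-values therefore measure only the spread between arrays, which may be technical.

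Interferons are secreted proteins that warn cells of infection. Type I interferons, such as the interferon alphas, and type II interferon, interferon gamma, bind separate receptors whose JAK kinases activate STAT proteins. The promoters of many antiviral genes hold the interferon-stimulated response element, or ISRE, or the gamma-activated site, or GAS, through which the pathway acts. The spleen filters blood and holds B cells, T cells and macrophages. In young mice it also makes red cells and granulocytes, whose granule proteins appear in a set order: primary granules in promyelocytes, then secondary and tertiary granules, then the proteins of mature neutrophils.

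Values are scaled MAS5 signals, a linear brightness per probe set with each array brought to the same trimmed mean. Differences are on the scale log2(signal + 32), which understates the change of dim genes, and a call is an adjusted p under 0.05 in limma over all tested probe sets. Some B cell markers were bright in both sexes. Ms4a1 gave 12396 and 12576 in females and 13334 and 14071 in males, and Cd79b and Ighm gave 9642 or more on each array. These markers do not tell spleen from other tissue that holds B cells, so the organ label was not tested. The sex labels held. Xist, the RNA of X inactivation, gave 345 and 270.0 in females and 61.2 and 7.49 in males, and Y-linked Eif2s3y gave 34.8 and 24.5 in females and 875 and 766 in males. Between the 4 arrays, r across genes was 0.966 within females, 0.964 within males and 0.955 to 0.960 between the sexes. RNA quality was read from actin control probe sets, whose 3' over 5' ratio was 1.03 and 1.37 in females and 1.03 and 1.19 in males. It stood apart in males of the later ages, at 0.333 and 0.376 at 6-9 weeks and 2.39 and 2.62 at 24-28 weeks. The same ratio for Gapdh was 2.22 and 2.92 in females and 2.26 and 2.35 in males of 3-4 weeks, with female b the highest of the 12 arrays. It was lowest in males of 6-9 weeks (1.06 and 1.38) and did not set the males of 24-28 weeks apart (2.30 and 2.37).

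At 3-4 weeks 24 of 37 interferon-stimulated effectors, 10 of 11 interferon-inducible GTPases and some granulocyte genes were higher in the male spleens, while 8 of 45 genes of DNA replication and 7 of 59 of mitochondrial ribosomes were lower. In all, 124 autosomal genes were higher in males, 1.95% of those tested, and 87 were lower, 1.37%. The median difference over the 6358 genes was −0.02. The higher genes moved further: 44 of the 124 differed by more than 1 log2 unit, against 7 of the 87 lower genes. For the 211 called genes the male and female arrays did not overlap, which was common. Both male arrays lay above both female arrays for 21.1% of tested genes and below for 24.2%. The lists were chosen with earlier results of these data known, so setting a list beside these shares is a description and not a test. In whole tissue, fewer cells of a type and less RNA per cell cannot be told apart.

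With female replicate a, female replicate b, male replicate a or male replicate b left out, 68, 69, 58 and 65 genes were higher and 20, 14, 17 and 45 were lower. In every such fit 47 of the 124 higher genes kept their call, against 4 of the 87 lower genes. Without the male 24-28 week arrays 104 were higher and 68 lower, and without the male 6-9 week arrays 139 and 113. With only the 3-4 week arrays 72 were higher and 21 lower. In the next paragraphs, a call said to be lost without an array is followed by the highest adjusted p over the 4 fits that each leave out 1 array.

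**Figure D1:**
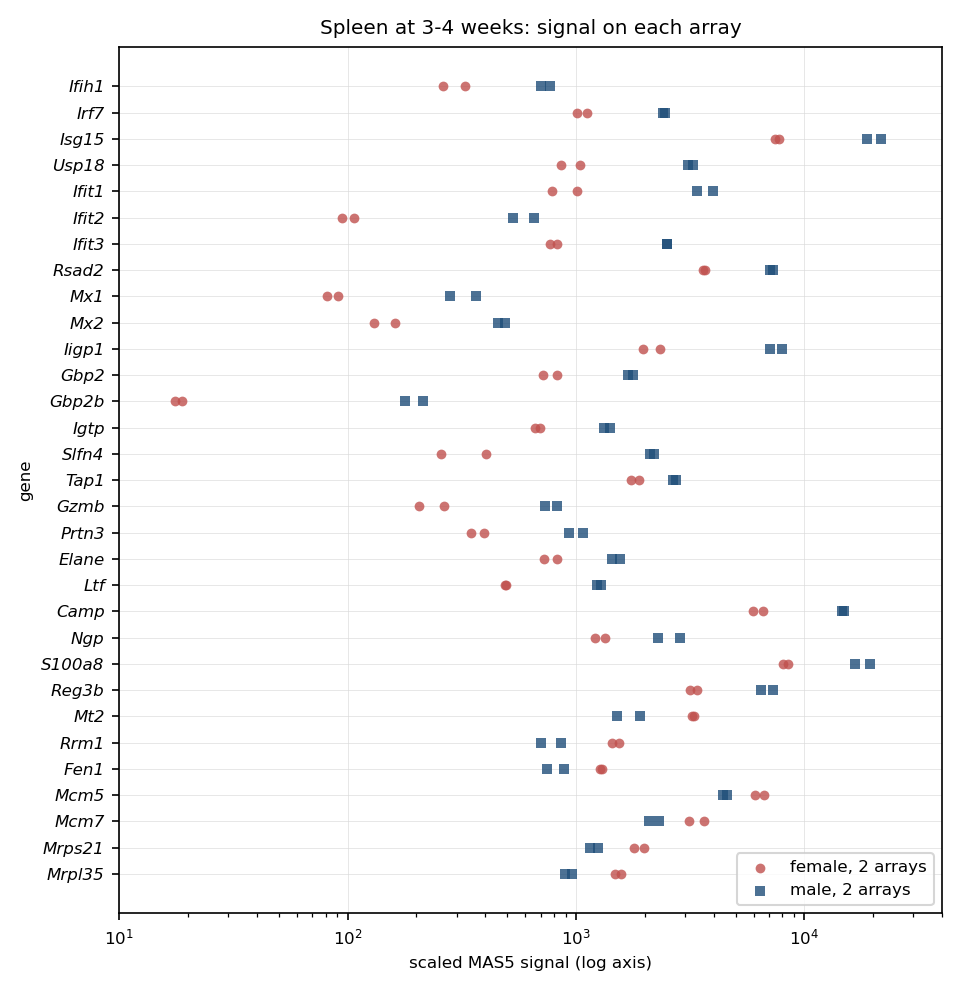
Scaled MAS5 signal (log axis) of 31 autosomal genes on the 4 arrays of 3-4 weeks, with females as circles and males as squares. The male arrays lie to the right of the female arrays for the interferon, granule and cytotoxic genes at the top, and for Reg3b of the pancreas list, and to the left for Mt2, the replication genes and the mitochondrial ribosomal genes at the bottom.

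The 5 interferon genes that could be tested, Ifna2, Ifna4, Ifna5, Ifna9 and Ifnab, all encode type I interferons, and none was called by limma or had an unadjusted p under 0.05. Their signals were low, and another 4 interferon genes on the array were too dim to test. Of the 5 tested, 2 had a positive and 3 a negative difference, from −0.62 to 0.31, with a median of −0.14. Ifna5, the most positive, gave 301 and 314 in females and 413 and 368 in males, a difference of 0.31 (SE 0.20, adjusted p = 0.529). None of 15 tested genes of interferon receptors and JAK-STAT signalling was called by limma either (1 with an unadjusted p under 0.05), with a median of 0.06. The receptor subunits Ifnar1 (0.06), Ifnar2 (0.31), Ifngr1 (−0.06) and Ifngr2 (−0.30) had adjusted p of 0.53 or more. Socs1, a feedback inhibitor of the pathway, gave 393 and 376 in females and 486 and 586 in males, and Irf9, a DNA-binding factor of the type I pathway, gave 2038 and 2297 in females and 2619 and 1726 in males. The groups did not overlap for Socs1 (0.44, SE 0.17, adjusted p = 0.217) and overlapped for Irf9 (−0.02, SE 0.17, adjusted p = 0.972).

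Among 7 tested sensors of viral nucleic acid and their adaptors, 2 were higher in males. Ifih1, which encodes the double-stranded RNA sensor MDA5, gave 261 and 327 in females and 703 and 768 in males. Both male arrays lay far above the female arrays, a difference of 1.24 (SE 0.17, adjusted p = 0.00249). Ifi204, a member of the p200 family of DNA-binding proteins measured by an _f_at probe set, differed by 0.75 (SE 0.11, adjusted p = 0.00287). Its 2 other tested probe sets were dim and not called, and disagreed in sign: one gave 66.2 and 92.8 in females and 208 and 167 in males, and the other 115 and 118 in females and 35.2 and 75.1 in males. Of 7 tested interferon regulatory factors, Irf7 and Irf1 were higher. Irf7, which drives interferon alpha transcription, gave 1009 and 1118 in females and 2393 and 2456 in males, a difference of 1.17 (SE 0.11, adjusted p = 0.000106). Irf1, which is induced by interferon gamma, gave 2579 and 2447 in females and 3628 and 3634 in males, a smaller difference of 0.53 (SE 0.08, adjusted p = 0.00478) that lost its call without female b (0.0546). Irf3, Irf4, Irf5 and Irf8 were not called.

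The interferon-stimulated effectors held the most called genes of any list. Of 37 tested, 24 were higher and 0 lower, which left 13 without a call. Among the 24 are Ifih1 and Irf7 from the lists above and Mx1 and Mx2, which are also GTPases. The median over the 37 was 0.62, against −0.02 over all tested genes. For 32 of the 37 both male arrays lay above both female arrays, against the 21.1% of all genes given above. As the list was chosen with earlier results known, these counts describe it and do not test it. The list mean, in log2 units, was 9.64 and 9.66 in females and 10.52 and 10.49 in males. With female a, female b, male a or male b left out, 16, 16, 13 and 16 were called higher, and without the intensity trend 14. The members are antiviral proteins of separate kinds, and are taken here by kind.

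The ISG15 pathway attaches the small ubiquitin-like protein Isg15 to other proteins. Isg15 gave 7754 and 7442 in females and 18714 and 21587 in males, a difference of 1.40 (SE 0.11, adjusted p = 3e-05). Usp18, which removes Isg15 and also dampens the type I receptor, had the smallest p of all autosomal genes. It gave 1039 and 860.3 in females and 3105 and 3257 in males, a difference of 1.72 (SE 0.10, adjusted p = 6.45e-06). The activating enzyme Uba7 (0.58, SE 0.10, adjusted p = 0.00714) and the conjugating enzyme Ube2l6 (0.79, SE 0.16, adjusted p = 0.0192) were higher as well, so 4 of the 5 tested members were called. Both enzymes lost the call when an array was left out: Uba7 without female a or male a (0.063) and Ube2l6 without any of the 4 arrays (0.115). Gm9706, annotated as a pseudogene and measured by an _f_at probe set that can match related transcripts, gave 1665 and 1676 in females and 5478 and 5506 in males, the second smallest p, and its identity is uncertain.

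The Ifit proteins bind viral RNA and block its translation. Ifit1 gave 782 and 1009 in females and 3977 and 3399.9 in males, a difference of 2.01 (SE 0.16, adjusted p = 3e-05). Ifit3 gave 768 and 825 in females and 2508 and 2492 in males, a difference of 1.61 (SE 0.13, adjusted p = 3e-05). Ifit2, dim in females, gave 94.8 and 106 in females and 531 and 656 in males, a difference of 2.23 (SE 0.18, adjusted p = 4.53e-05), the second largest of all called autosomal genes. All 3 genes lie on chromosome 19, and each kept its call with any array left out. Rsad2, or viperin, which makes a chain-terminating nucleotide, differed by 0.98 (SE 0.11, adjusted p = 0.00043), and Cmpk2, a nucleotide kinase, by 1.05 (SE 0.14, adjusted p = 0.0016). Ifitm3, a membrane protein that blocks virus entry, gave 7556 and 7433 in females and 11882 and 12799 in males, a difference of 0.72 (SE 0.09, adjusted p = 0.00122). The remaining effectors called were Ifi35 (1.03), Trim30a (0.97), Trim21 (0.56), Lgals9 (0.57), Lgals3bp (0.52), Shisa5 (0.43), Sp100 (0.61), Ifi27l2a (0.85) and Ogfr (0.50). Of these Ifi35 kept its call throughout, and the highest adjusted p were: Trim30a without female a, male a or male b (0.111), Trim21 without female b, male a or male b (0.143), Lgals9 without female b, male a or male b (0.144), Lgals3bp without any of the 4 arrays (0.153), Shisa5 without any of the 4 arrays (0.144), Sp100 without any of the 4 arrays (0.145), Ifi27l2a without female a, female b or male a (0.202) and Ogfr without any of the 4 arrays (0.178). The effectors nearest to the threshold without passing were Isg20 (0.52, adjusted p = 0.0525) and Trim25 (0.43, adjusted p = 0.0546), while Ifi27, Irf9, Ifitm1 and Pml lay between −0.05 and 0.08.

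The interferon-inducible GTPases attack intracellular pathogens and their vacuoles. Of 11 tested members 10 were higher and 0 lower, with a median of 0.98. All 11 had both male arrays above both female arrays, against 21.1% of all genes. With female a, female b, male a or male b left out, 8, 9, 7 and 9 were called. Iigp1, of the immunity-related family, gave 2338 and 1969 in females and 7945 and 7054 in males, a difference of 1.79 (SE 0.14, adjusted p = 3e-05), and a second probe set of it gave 957 and 940.4 in females and 3054 and 3200.5 in males. Its relatives Igtp, Ifi47 and Irgm2, on chromosome 11, differed by 0.98, 0.88 and 0.86. The guanylate-binding proteins on chromosome 3 were also higher: Gbp2 (1.14), Gbp3 (0.95), Gbp7 (0.59) and Gbp2b (2.18). Gbp2b was barely lit in females and gave 17.6 and 18.9 in females and 178 and 213 in males. Its difference depends on the offset, and was 3.35 with an offset of 1 and 1.14 with the larger one tried. The dynamin-like Mx1 gave 90.5 and 81.6 in females and 366 and 280.3 in males and Mx2 129.9 and 161 in females and 489 and 456 in males, differences of 1.58 and 1.51. Irgm1, the member not called, differed by 0.40 (SE 0.16, adjusted p = 0.261). The calls lost with an array left out were those of Mx1 without male a (0.0513), Irgm2 without female a or male a (0.0662) and Gbp7 without any of the 4 arrays (0.251).

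Promoter sequences of some of these genes are shown because the ISRE is a promoter element through which interferons act. They are RefSeq sequences of assembly GRCm38.p6, written 5′ to 3′ in the direction of the gene, with up to 25 bases on each side and each match to the ISRE core in capitals. The core searched was GAAANNGAAA on both strands, so a match to the other strand reads as its reverse complement. The GAS motif TTCNNNGAA reads the same on both strands and can overlap an ISRE match.
Isg15 (chr4:156200850-156200921, minus strand): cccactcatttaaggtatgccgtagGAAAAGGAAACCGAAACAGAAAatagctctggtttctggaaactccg
Ifit1 (chr19:34640760-34640838, plus strand): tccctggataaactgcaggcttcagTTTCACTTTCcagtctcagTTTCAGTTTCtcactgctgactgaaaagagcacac
Ifit3 (chr19:34583348-34583441, plus strand): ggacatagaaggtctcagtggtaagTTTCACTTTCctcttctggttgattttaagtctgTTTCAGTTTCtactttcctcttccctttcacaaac
Rsad2 (chr12:26456538-26456597, minus strand): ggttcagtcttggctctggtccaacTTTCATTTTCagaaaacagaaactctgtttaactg
Gbp2 (chr3:142620579-142620638, plus strand): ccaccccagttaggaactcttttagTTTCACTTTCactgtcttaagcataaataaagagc
Gbp2b (chr3:142594685-142594744, plus strand): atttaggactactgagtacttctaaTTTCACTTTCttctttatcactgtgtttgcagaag
Igtp (chr11:58199497-58199555, plus strand): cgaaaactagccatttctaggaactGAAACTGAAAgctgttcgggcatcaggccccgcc
Irgm2 (chr11:58214888-58214947, plus strand): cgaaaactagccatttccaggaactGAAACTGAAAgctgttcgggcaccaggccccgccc
The Isg15 window holds 3 overlapping matches and those of Ifit1 and Ifit3 hold 2 each, all upstream of the start.

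Over promoters of 300 bases, 250 before and 50 after the start, the ISRE core was present in 3.99% of 27025 genes and in 3.85% of the 5085 tested autosomal genes with a promoter in the table. It was present in 19 of 101 genes higher in males (18.8%) and in 3 of 77 genes lower in males (3.9%). Among the effectors it was present in 11 of 19 called genes and in 3 of 11 that were not called. Among the GTPases it was present in 6 of 7 called genes and in the 1 that was not called. In the longer form GAAANNGAAAC the shares were 0.944% of all genes, 9.9% of the higher genes and 0 of the 77 lower genes. GAS was present in 9.55% of all genes, 20.8% of the higher and 6.49% of the lower genes. Among the effectors it was present in 4 of 19 called genes and in 3 of 11 that were not called. Irf7, Ifit2, Cmpk2, Ifi35, Lgals3bp, Sp100, Uba7, Ube2l6, Ifi47 and Slfn4 held no ISRE core match in this window. Usp18, Mx1, Mx2, Iigp1, Gm9706 and Ifi27l2a have no promoter in the table. A match is a description of letters and was not tested as a site.

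Slfn4, a Schlafen family gene of myeloid cells, had the largest difference of all called autosomal genes. It gave 401 and 257 in females and 2115 and 2186 in males, with both male arrays far above both female arrays, a difference of 2.62 (SE 0.19, adjusted p = 1.69e-05). Slfn2, measured by an _i_at probe set, differed by 0.57 (SE 0.11, adjusted p = 0.0145), and an _f_at probe set of it gave 3276 and 2999.6 in females and 4953 and 4649 in males. It lost its call without any of the 4 arrays (0.143). Slfn1 (0.54, adjusted p = 0.214) was not called. Ifi209, another p200 family gene, gave 314 and 199 in females and 613 and 728 in males, a difference of 1.31 (SE 0.18, adjusted p = 0.00232).

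Of 17 tested genes of MHC class I antigen presentation, 5 were higher, 0 were lower and the median was 0.32. They were the peptide transporter Tap1 (1741 and 1890.4 in females and 2667 and 2742 in males, difference 0.57, SE 0.08, adjusted p = 0.00362), the immunoproteasome subunits Psmb9 (0.60) and Psmb8 (0.48), the chaperone Tapbp (0.49) and the class I-like gene H2-T24 (0.76). The class I heavy chain genes H2-K1 (0.09, adjusted p = 0.932) and H2-D1 (0.09, adjusted p = 0.937) and the light chain gene B2m (0.33, adjusted p = 0.441) were not called. With female a, female b, male a or male b left out, 1, 2, 1 and 1 of the 5 calls were made, with the highest adjusted p for Psmb9 without female a, male a or male b (0.0752), Psmb8 without any of the 4 arrays (0.139), Tapbp without any of the 4 arrays (0.217) and H2-T24 without any of the 4 arrays (0.261). Without the intensity trend 1 of the 17 was called. None of 12 MHC class II genes was called by limma (median 0.04, 1 with an unadjusted p under 0.05).

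**Figure D2:**
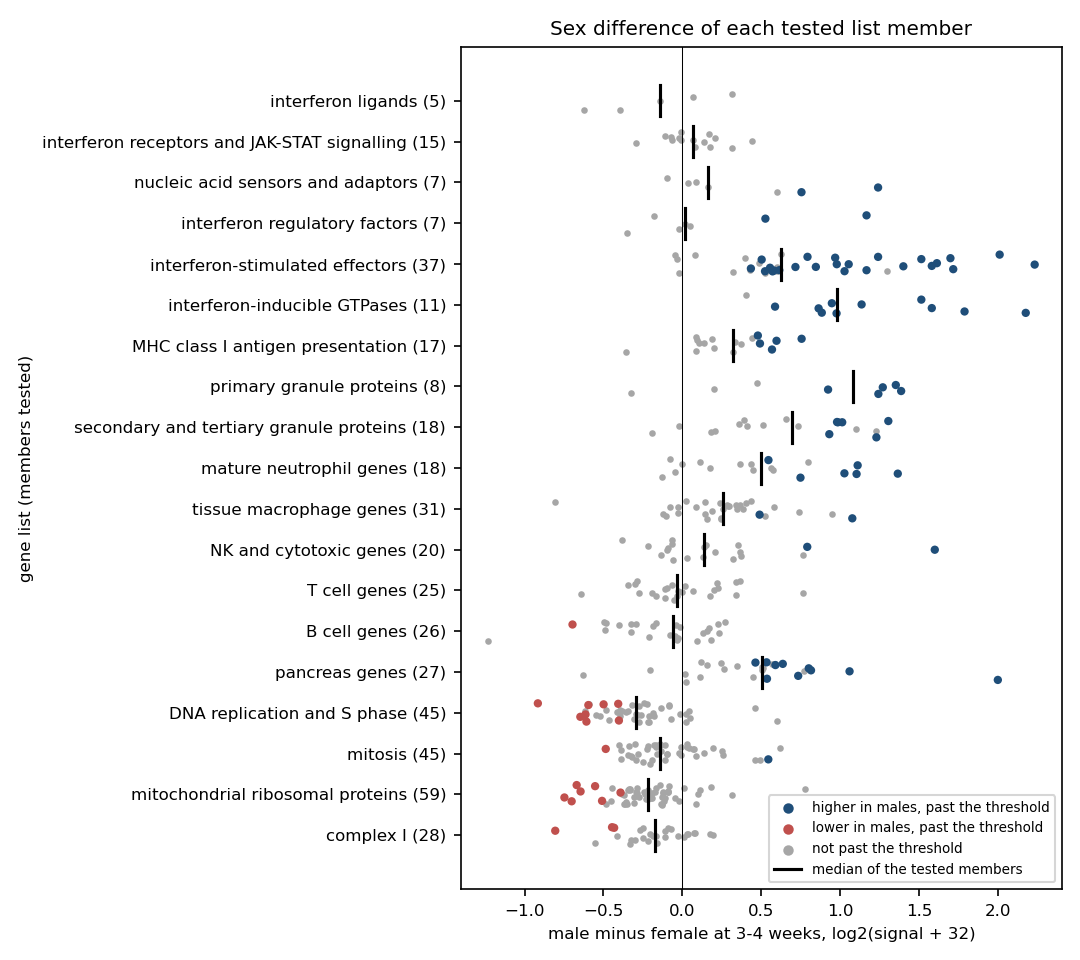
Male minus female difference at 3-4 weeks, on the log2(signal + 32) scale, of each tested member of 19 gene lists, with called members in colour and the median as a bar. All 11 GTPases and 34 of the 37 effectors lie to the right of 0 while the interferon ligands, receptors and JAK-STAT genes lie around 0, and the medians of the replication and mitochondrial ribosomal lists lie to the left.

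Some granule genes of neutrophils were higher in males in each of the lists for the stages of granule formation. Of 8 tested primary granule genes 5 were higher and 0 lower (median 1.08). Prtn3, which encodes proteinase 3, gave 348 and 397 in females and 1074 and 929 in males, a difference of 1.35 (SE 0.13, adjusted p = 0.000117). Elane, neutrophil elastase, gave 823 and 722 in females and 1553 and 1429 in males, a difference of 0.92 (SE 0.12, adjusted p = 0.00188). The male arrays lay above the female arrays for both genes, with no overlap. Mpo (1.39), the cystatin gene Cst7 (1.27) and the protease gene Ctsg (1.24) were the others called. Mpo rests on an _s_at probe set, and a dimmer probe set of it gave 161 and 190.4 in females and 96.9 and 142 in males and was not called. With female a, female b, male a or male b left out, 4, 3, 3 and 4 genes were called, and the calls lost were those of Mpo without female b or male a (0.0752) and Ctsg without any of the 4 arrays (0.206).

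Of 18 tested secondary and tertiary granule genes 6 were higher and 0 lower (median 0.70). Ltf, the iron-binding lactoferrin, gave 489 and 495 in females and 1240.0 and 1284 in males, a difference of 1.30 (SE 0.11, adjusted p = 4.37e-05). Camp, the antimicrobial cathelicidin, gave 6611 and 5974 in females and 14669 and 14885 in males, a difference of 1.23 (SE 0.10, adjusted p = 6.17e-05). Ngp (0.98), haptoglobin Hp (0.93), the chitinase-like Chil3 (0.99) and lipocalin Lcn2 (1.01) were also higher. A second Lcn2 probe set gave 302 and 306 in females and 368 and 316 in males and was not called (0.15, adjusted p = 0.797). Mmp8 (−0.19), Ceacam1 (−0.02) and Lyz2 (0.41, adjusted p = 0.132) were not called. With any 1 of the 4 arrays left out 4 were called, the losses being Chil3 without any of the 4 arrays (0.0828) and Lcn2 without any of the 4 arrays (0.224).

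Of 18 genes of mature neutrophils 6 were higher and 0 lower (median 0.50). S100a8, a calcium-binding protein abundant in neutrophils, gave 8071 and 8492 in females and 16569 and 19361 in males, a difference of 1.11 (SE 0.16, adjusted p = 0.00335), and its partner S100a9 differed by 0.55 (SE 0.12, adjusted p = 0.028). Ifitm6 (1.10), Wfdc21 (1.36), the protease inhibitor Slpi (1.03) and the formyl peptide receptor Fpr2 (0.75) were the others called. A second Slpi probe set gave 1576 and 1509 in females and 1982 and 2202 in males and was not called (0.43, adjusted p = 0.0864). Dimmer Slpi probe sets differed by −0.01 and 0.15 and were not called either. The receptors Csf3r (0.37, adjusted p = 0.433) and Cxcr2 (adjusted p = 0.999) were not called. With any 1 array left out 4 were called, the losses being S100a9 without any of the 4 arrays (0.177) and Fpr2 without any of the 4 arrays (0.238). The summed signal of the 18 genes was 22179.6 and 22916 in females and 37262 and 41160.4 in males. The part of granulocytes in the interferon-stimulated differences was not tested.

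Other blood cell lists held fewer called genes. Prg2, the major basic protein of eosinophils, gave 217 and 345 in females and 981 and 791 in males, a difference of 1.57 (SE 0.29, adjusted p = 0.0143), and lost its call without female a, male a or male b (0.115). It was the 1 of 11 eosinophil, basophil and mast cell genes called. Of 20 NK and cytotoxic genes 2 were higher. Gzmb, the cytotoxic protease granzyme B, gave 265 and 206 in females and 727 and 823 in males, a difference of 1.60 (SE 0.15, adjusted p = 0.000128). Serpinb9, its intracellular inhibitor, gave 1926 and 1665 in females and 3151 and 3094 in males, a difference of 0.79 (SE 0.10, adjusted p = 0.0016). The NK receptor Ncr1 (−0.09), perforin Prf1 (−0.10) and Gzma (0.14) had adjusted p of 0.76 or more. Of 31 tissue macrophage genes, Fcgr1, the high-affinity IgG receptor, and C1qb, a chain of complement C1q, were higher (median 0.26). Fcgr1 gave 624 and 663 in females and 1440.2 and 1347 in males on an _s_at probe set, and a second probe set gave 221 and 212 in females and 738 and 785 in males. C1qb gave 3369 and 3287 in females and 4619.7 and 4749 in males and lost its call without any of the 4 arrays (0.136). The monocyte gene Ms4a4c (0.99) was the 1 of 16 called in its list, and Cd86, the T cell costimulator (0.90, an _s_at probe set), the 1 of 21 dendritic cell genes. With the 2 calls included, 25 of the 31 macrophage genes had a positive difference. For 20 of the 31 both male arrays lay above both female arrays, against 21.1% of all genes. In limma 12 of the 31 were higher and 0 lower at an unadjusted p under 0.05, a level whose share over all genes is not given. Among those not called, Adgre1 (0.02) and Msr1 (−0.03) lay near 0.

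Few lymphocyte genes passed the test. None of 25 T cell genes was called by limma (median −0.03, 2 with an unadjusted p under 0.05, 1 each way). The share of all genes at that level is not given, here or for B cells. Of 26 B cell genes 1 was lower (median −0.06, 6 lower and 0 higher at an unadjusted p under 0.05). For 10 of the 26 both male arrays lay below both female arrays, against 24.2% of all genes. That gene, Cd79a, a signalling chain of the B cell receptor, gave 4965 and 6004 in females and 3059 and 3672 in males, a difference of −0.70 (SE 0.13, adjusted p = 0.0146), and lost its call without female b or male a (0.142). Its partner Cd79b differed by −0.03 (SE 0.11, adjusted p = 0.941) and Ms4a1 by 0.13 (SE 0.12, adjusted p = 0.69). The summed signals of the 26 B cell genes overlapped between the sexes, at 87139 and 82338 in females and 80366 and 87417 in males. Their list mean, in log2 units, did not overlap, at 10.17 and 10.08 in females and 9.96 and 9.98 in males. Among 17 chemokines Cxcl5, a neutrophil attractant, was higher (1.10, SE 0.27, adjusted p = 0.0489) and lost its call without any of the 4 arrays (0.217). Cxcl10, a target of interferon, gave 181 and 161 in females and 418 and 289 in males and did not pass (0.90, SE 0.24, adjusted p = 0.0708). None of 21 cytokines was called by limma, and 2 had an unadjusted p under 0.05.

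Some genes of the exocrine pancreas, an organ that lies beside the spleen, were higher in males too. Of 27 tested 10 were higher and 0 lower, with a median of 0.50. Reg3b, a secreted lectin, gave 3146 and 3385 in females and 6433 and 7259 in males, a difference of 1.06 (SE 0.11, adjusted p = 0.00028) on an _s_at probe set, and Cel, a lipase, gave 5369 and 5574 in females and 9027 and 9209 in males, a difference of 0.73 (SE 0.13, adjusted p = 0.0124). The others called were Reg3a (0.81), Sycn (0.80), Ctrl (0.64), Klk1 (0.54), Zg16 (0.53), Pnliprp1 (0.46) and Clps (0.59), and Reg3g, which gave 28.3 and 34.2 in females and 218 and 223 in males. The bright proteases Ctrb1 (0.51, adjusted p = 0.206) and Cela1 (0.45, adjusted p = 0.0776) were not. The summed signal of the 27 genes was 87159 and 85831 in females and 119087 and 125376 in males, higher on both male arrays. The islet hormone gene Ins2 was dim and gave 67.4 and 66.5 in females and 82.1 and 56.4 in males. The part of pancreas RNA in the other differences was not tested. Leaving out female a, female b, male a or male b left 3, 4, 3 and 4 called members, the fit without the intensity trend left 3, and the calls lost were those of Sycn without male a (0.0514), Ctrl without female a (0.0628), Cel without any of the 4 arrays (0.087), Klk1 without any of the 4 arrays (0.0856), Reg3g without any of the 4 arrays (0.149), Zg16 without any of the 4 arrays (0.165), Pnliprp1 without any of the 4 arrays (0.214) and Clps without any of the 4 arrays (0.225). Of 10 adipose genes 0 were called by limma (1 with an unadjusted p under 0.05), of 13 muscle genes 1 (Eno3, 0.74, lost without female a, male a or male b (0.11)) and of 10 liver genes 1 (Hp, also a granule gene). Their summed signals were 5167 and 4966 in females and 4279 and 4052 in males for adipose, 4749 and 3571 in females and 4275 and 4479 in males for muscle and 3026 and 2518 in females and 3755 and 3833 in males for liver, and albumin Alb was dim, with means of 99.3 in females and 111 in males.

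The genes lower in males were led by Mt2, a metallothionein that binds zinc and responds to glucocorticoids. It gave 3233 and 3277 in females and 1507 and 1913 in males, a difference of −0.93 (SE 0.11, adjusted p = 0.000859). Mt1, its neighbour in the family, gave 1552 and 1572 in females and 1083 and 1175 in males and did not pass (−0.46, SE 0.14, adjusted p = 0.115). Of 19 glucocorticoid-responsive genes Mt2 was lower and 2 were higher: Anxa1, an anti-inflammatory protein measured by an _f_at probe set (0.94, SE 0.10, adjusted p = 0.000295), and Lcn2, already named. Fkbp5, another such target, gave 327 and 321 in females and 199.9 and 136 in males (−0.85, SE 0.25, adjusted p = 0.103). Of 15 genes of sex steroid receptors and metabolism 0 were called by limma, and 0 had an unadjusted p under 0.05, among them Esr1 (−0.10, SE 0.61, adjusted p = 0.969).

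Some genes of DNA replication and S phase were lower in males. Of 45 tested 8 were lower and 0 higher, with a median of −0.29, and for 33 both male arrays lay below both female arrays, against 24.2% of all genes. The list mean was 9.83 and 9.84 in females and 9.54 and 9.55 in males. Rrm1, the large subunit of ribonucleotide reductase, gave 1542 and 1440.5 in females and 699 and 859 in males, a difference of −0.92 (SE 0.16, adjusted p = 0.0106). Fen1, a flap endonuclease, gave 1277 and 1303 in females and 747 and 884 in males, a difference of −0.65 (SE 0.11, adjusted p = 0.0102). Mcm5, of the replicative helicase, gave 6052 and 6642 in females and 4378 and 4576 in males. Its fellow subunit Mcm7 gave 3624 and 3112 in females and 2081 and 2309 in males. For these 4 genes the male arrays were about 0.5 to 0.9 log2 units lower, and the other genes called were Cdc6 (−0.60), Ccne1 (−0.61), Mcm3 (−0.40) and Slbp (−0.41). None of the 8 kept its call in every fit that left out 1 array. Over the 45 genes 1, 1, 0 and 3 were called lower with female a, female b, male a and male b left out, and the losses among the 8 were Fen1 without female a, female b or male a (0.0897), Rrm1 without female a, female b or male a (0.0936), Mcm5 without any of the 4 arrays (0.145), Mcm7 without female a, male a or male b (0.138), Cdc6 without any of the 4 arrays (0.136), Ccne1 without female b, male a or male b (0.217), Mcm3 without any of the 4 arrays (0.278) and Slbp without any of the 4 arrays (0.267). The list's median stayed between −0.32 and −0.26 in these fits. Without the intensity trend 0 of the 45 were called by limma, and in the fit with the trend 18 were lower at an unadjusted p under 0.05. The share of all genes at that level is not given, so the 18 do not set the list apart. Of 45 genes of mitosis 1 was lower (Kif22, −0.49) and 1 higher (Pttg1, 0.54), with a median of −0.14, and both calls were lost: Kif22 without female a, female b or male b (0.0779) and Pttg1 without female a, female b or male b (0.131).

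Other lower genes were named for a small p or for a large difference. Ifrd2, which silences translation on ribosomes, gave 2414 and 2738 in females and 1519 and 1610.4 in males, a difference of −0.71 (SE 0.10, adjusted p = 0.00232), and kept its call with any array left out. Ap1s1 gave 2290.1 and 2242 in females and 1316 and 1351 in males, a difference of −0.75 (SE 0.12, adjusted p = 0.00622). Tkt, or transketolase (−0.59), Gart, of purine synthesis (−0.63), and Ahcy, of the methionine cycle (−0.75), encode enzymes. Me1, malic enzyme (−1.21, adjusted p = 0.0425), Pias3 (−1.27, adjusted p = 0.0432), Farsb, a phenylalanyl-tRNA synthetase subunit (−0.96, adjusted p = 0.0443), and Tlcd4 (−1.04, adjusted p = 0.0438) were named for the size of the difference and lay near the threshold. The rest were Stard10 (−1.08), Minpp1 (−0.91), Lsm2 (−0.78), Gstm5 (−0.63), Imp3 (−0.51), C1qtnf12 (−0.74) and Nt5dc2 (−1.12), with Lsm2 on an _s_at and Gstm5 and Pias3 on _f_at probe sets. Calls were lost for Ap1s1 without female a or male a (0.0573), Tkt without female a, female b or male a (0.0599), Gart without female a or male a (0.0751), Ahcy without female b, male a or male b (0.104), Me1 without any of the 4 arrays (0.21), Stard10 without female b (0.0549), Minpp1 without female a or male a (0.0673), Lsm2 without female b or male a (0.0664), Gstm5 without female b or male a (0.0774), Imp3 without female b, male a or male b (0.0913), C1qtnf12 without female a, female b or male a (0.0897), Nt5dc2 without female a, female b or male a (0.0915), Pias3 without any of the 4 arrays (0.219), Farsb without female a, female b or male a (0.24) and Tlcd4 without any of the 4 arrays (0.277). On the higher side, Lyst, the lysosomal trafficking regulator, was the 1 gene among the 10 largest differences outside the lists, with 20.3 and 82 in females and 305 and 152 in males, a difference of 1.69 (SE 0.40, adjusted p = 0.0453), and it lost its call without female a, male a or male b (0.273).

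The E2F factors bind the promoters of many S phase genes. The site searched, TTTGGCGC on both strands, was present in 0.585% of all genes' promoters, in 1.22% of the tested autosomal genes, in 4 of 77 genes lower in males (5.19%) and in 3 of 101 genes higher in males (2.97%). Of the 8 called replication genes Mcm3 and Mcm5 held it, as did 2 of 32 replication genes that were not called. The Mcm5 window is shown with the match in capitals (chr8:75109335-75109392, plus strand).
Mcm5: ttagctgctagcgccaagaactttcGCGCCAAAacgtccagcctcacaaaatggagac

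Mitochondrial genes were the other group with several lower members. Of 59 mitochondrial ribosomal protein genes 7 were lower and 0 higher (median −0.22). For 37 of them both male arrays lay below both female arrays, against 24.2% of all genes. Mrps21 gave 1789.9 and 1992 in females and 1146 and 1248 in males, a difference of −0.65 (SE 0.09, adjusted p = 0.00254), and Mrpl35 gave 1567 and 1487 in females and 896 and 958 in males, a difference of −0.70 (SE 0.11, adjusted p = 0.00419). These 2 kept their calls in every fit that left out 1 array, unlike Mrps12 without female b, male a or male b (0.164), Mrps28 without any of the 4 arrays (0.159), Mrpl51 without any of the 4 arrays (0.176), Mrpl38 without any of the 4 arrays (0.224) and Mrps26 without any of the 4 arrays (0.227). With female a, female b, male a or male b left out, 3, 2, 2 and 2 were called, and without the intensity trend 2. Complex I had 3 of 28 subunits lower, Ndufab1 (−0.81), Ndufs1 (−0.43) and Ndufb7 (−0.45), and complex III had Uqcr11 (−0.58). Complexes II, IV and V had none in limma. At an unadjusted p under 0.05 complex II had 0, complex IV had 1 higher and 1 lower, and complex V had 3 lower. The share of all genes at that level is not given, so such counts, also for complex I, do not set a list apart. Without the intensity trend 0 of the 28 complex I genes were called by limma (11 lower at an unadjusted p under 0.05 with the trend). These calls were also lost with an array left out: Ndufab1 without female b, male a or male b (0.143), Ndufs1 without any of the 4 arrays (0.159), Ndufb7 without any of the 4 arrays (0.215) and Uqcr11 without any of the 4 arrays (0.144). The mitochondrial chaperones Hspa9 (1353 and 1186 in females and 678 and 802 in males, difference −0.75, SE 0.13, adjusted p = 0.00939) and Hspd1 (−0.60) were the 2 of 25 heat shock and chaperone genes called, with losses of Hspa9 without female a or male a (0.0864) and Hspd1 without female b or male a (0.116). A dimmer Hspd1 probe set had the opposite sign and was not called (0.67, adjusted p = 0.534). Of 28 cytosolic ribosomal proteins Rpl13a was lower (−0.44), a call lost without female a, female b or male b (0.249), and their median was 0.08.

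The same male minus female difference was then read at the later ages in other arrays. At 6-9 weeks 197 autosomal genes were higher in males (3.1%) and 346 lower (5.44%), and at 24-28 weeks 501 were higher (7.88%) and 622 lower (9.78%). Of the 124 genes higher at 3-4 weeks, 52 were called higher at 6-9 weeks and 3 lower, and 57 were called higher at 24-28 weeks and 25 lower. Of the 87 lower genes, 42 were called lower at 6-9 weeks and 1 higher, whereas at 24-28 weeks 6 were called lower and 30 higher. For the 87 the median difference went from −0.62 at 3-4 weeks to −0.44 and then 0.23 at the later ages. Called the same way at all ages were 25 higher genes and 1 lower gene, Ap1s1, a clathrin adaptor subunit. The 25 include the interferon targets Slfn4, Isg15, Ifit1, Ifit2, Ifit3, Rsad2, Irf7, Iigp1, Igtp, Gbp7, Ifi204, Lgals9 and Uba7. They also include the granulocyte genes S100a8, Hp, Ifitm6, Wfdc21 and Fpr2 and the pancreas genes Reg3a and Reg3b. The others are Cxcl5, Gm9706, Lilr4b, Prxl2a and Yipf4. Leaving out female a or female b at 6-9 weeks left 111 and 114 genes higher and 130 and 157 lower at that age. At 24-28 weeks male a or male b left 299 and 314 higher, and female a, female b or male a left 372, 396 and 381 lower.

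**Figure D3:**
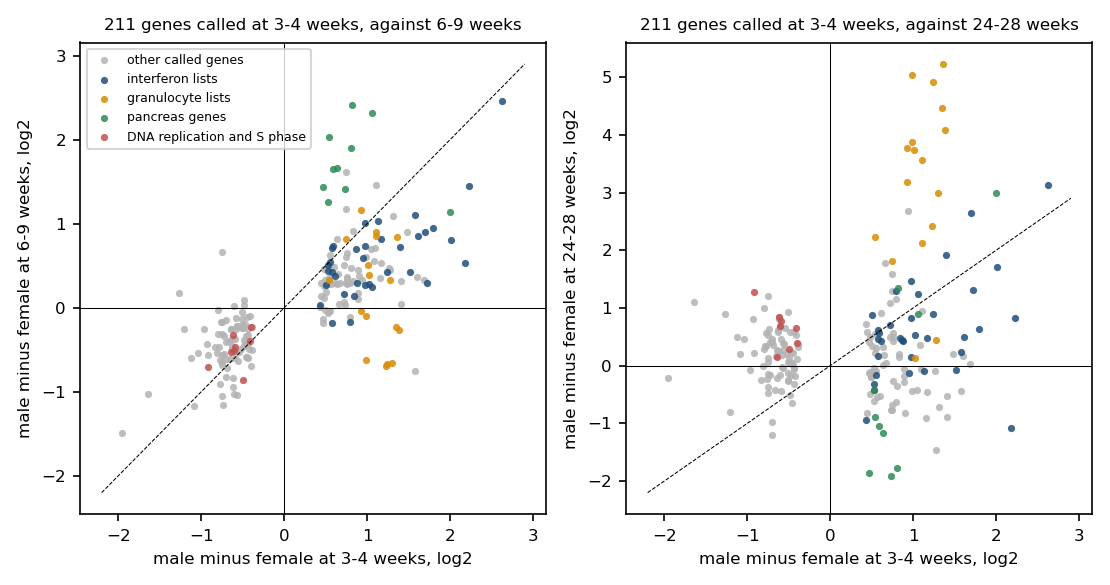
Male minus female difference (log2) of the 211 genes called at 3-4 weeks, on the x axis, against the difference at 6-9 weeks (left) and at 24-28 weeks (right), with equality as a dashed line. The granulocyte genes lie between −0.70 and 1.16 at 6-9 weeks and between 0.13 and 5.23 at 24-28 weeks, and the replication genes lie below 0 at 6-9 weeks and above it at 24-28 weeks.

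Whether the sex difference itself changed with age was tested directly, as the male minus female difference at 3-4 weeks minus that at the later age. Against 6-9 weeks 48 autosomal genes were more positive at 3-4 weeks (0.755%) and 36 more negative (0.566%), and against 24-28 weeks 391 (6.15%) and 385 (6.06%). Without female a, female b, male a or male b of 3-4 weeks the first pair became 16 and 23, 26 and 30, 16 and 21, and 22 and 29. Without female a, female b or male a of 6-9 weeks it became 16 and 29, 13 and 21, and 125 and 45. Without male b of 24-28 weeks 254 were more negative against that age. Of the 37 effectors 3 were more positive than at 6-9 weeks and 0 more negative, and 8 were more positive than at 24-28 weeks and 2 more negative. Of the 11 GTPases 0 passed limma's test against 6-9 weeks (4 with an unadjusted p under 0.05), and 6 were more positive than at 24-28 weeks and 0 more negative.

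Usp18 had the smallest p of the effectors in the test against 6-9 weeks. Its signals were 1039 and 860.3 in females and 3105 and 3257 in males at 3-4 weeks but 1017 and 1037 in females and 1275 and 1265 in males at 6-9 weeks, and 905 and 849 in females and 2171 and 2263 in males at 24-28 weeks. The male signal was thus highest at 3-4 weeks while females stayed between 849 and 1039, and the difference exceeded that at 6-9 weeks by 1.42 (SE 0.15, adjusted p = 0.000873). Gbp2b went from 2.18 at 3-4 weeks to 0.54 at 6-9 weeks and −1.08 at 24-28 weeks. Mx2 went from 1.51 to 0.43 at 6-9 weeks and −0.08 at 24-28 weeks. Both are among the 11 GTPases, of which 0 passed limma's test against 6-9 weeks. For Slfn4 the values were 2.62 at the youngest age and 2.46 and 3.13 later, and it passed neither test between ages.

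The granulocyte lists did not share 1 course. For Ltf the male minus female difference was 1.30 at the youngest age, then −0.65 and 2.99 at the later ones. For Camp it was 1.23, −0.70 and 2.42. The difference at 3-4 weeks exceeded that at 6-9 weeks by 1.96 (SE 0.15, adjusted p = 0.000143) for Ltf and by 1.93 (SE 0.15, adjusted p = 0.000143) for Camp. In the primary granule list 4 of 8 genes passed that test, more positive at 3-4 weeks, and 4 of 8 were more negative than at 24-28 weeks. In the secondary and tertiary list, which holds Ltf and Camp, 3 of 18 genes were higher and 3 lower at 6-9 weeks (median 0.50), and against that age 3 were more positive at 3-4 weeks and 1 more negative. Of 18 mature neutrophil genes 8 were higher at 6-9 weeks and 0 lower (median 0.77, against 0.50 at 3-4 weeks), and 1 was more negative at 3-4 weeks. The primary granule signals were brightest in males of 24-28 weeks, with sums of 26222 and 27094 against 6276 and 7064 in males of 3-4 weeks. Those male arrays also had the highest actin ratio, whose part in the comparison of ages was not tested.

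Replication genes had the sign of the 3-4 week difference at 6-9 weeks, with 10 of 45 lower (median −0.27), and the opposite at 24-28 weeks, with 15 higher and 1 lower (median 0.34). In the direct test 18 of 45 were more negative at 3-4 weeks than at 24-28 weeks, and 0 of 45 passed limma's test against 6-9 weeks (2 with an unadjusted p under 0.05). Pancreas genes were more positive at 6-9 weeks than at 3-4 weeks for 10 of 27, with Reg3a going from 0.81 to 2.41 at 6-9 weeks and 1.34 at 24-28 weeks. At 24-28 weeks 14 of the 27 were lower in males and 4 higher, while of the 37 effectors 18 were higher and 1 lower.

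**Figure D4:**
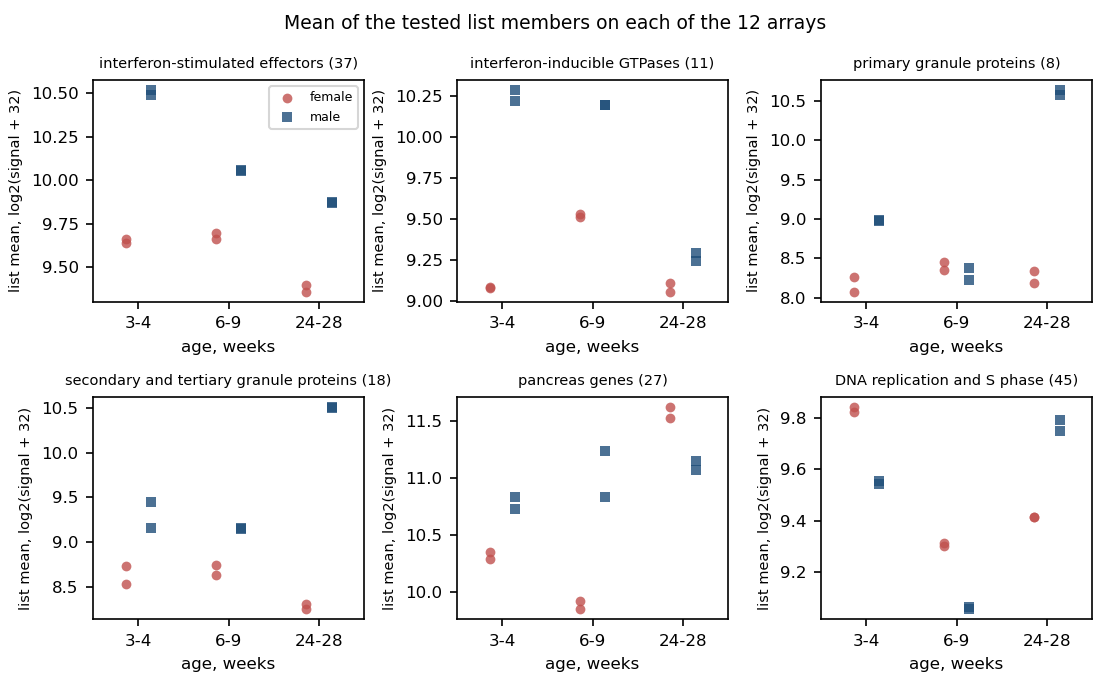
Mean log2(signal + 32) of the tested members of 6 gene lists on each of the 12 arrays, by age, with females as circles and males as squares. The effector and GTPase means are higher on the male than on the female arrays at each age, and the replication mean is lower in males at 3-4 and 6-9 weeks and higher at 24-28 weeks.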

How the data were processed

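Total RNA of mouse spleen was labelled with biotin and hybridised to 12 single-colour arrays. The values the authors deposited are MAS5 signals, an intensity on a linear scale per probe set; MAS5 is named in the submitters' processing notes. Its version and scaling target, and the array, growth and extraction protocols, were not among the sources used here. The deposited arrays shared a trimmed mean of 800.5 to 800.7, so they had been scaled before deposit. The table holds 12488 probe sets, of which 66 were controls and were left out. Of the other 12422, 10833 had 1 gene symbol, 396 several and 1193 none in the platform annotation, and 10821 of the symbols were matched in the RefSeq gene table of GRCm38.p6, which also gave chromosomes. A gene was represented by its brightest tested probe set.

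Each array was rescaled to a mean of 500 after trimming 2% at each end, 32 was added and log2 was taken. Probe sets reaching 100 on at least 2 of the 12 arrays were tested, 8926 in all. With limma 3.58.1 in R 4.3.3, 6 group means were fitted and the variances moderated along an intensity trend. The residual degrees of freedom were 6 and the prior ones 5.43. Every adjusted p is limma's, with Benjamini-Hochberg adjustment across these 8926, and a call is an adjusted p under 0.05. Precision is limited by having 2 arrays per group.

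The named genes were the 20 smallest p and the 10 largest differences each way, called list members, up to 3 members of lists with fewer than 2 calls, the 10 smallest p of each test between ages and the sex-linked genes. Genes named as not called, the genes of the last section and the second probe sets were chosen after their values were seen. Members and lists were chosen with earlier results of these data known. Lists are described by counts and medians with no test. The share of all tested genes with an unadjusted p under 0.05 is not given, so counts at that level do not set a list apart. Of the 211 called genes 25 rest on probe sets ending in _s_at, _f_at, _r_at or _i_at, which can match related transcripts, so their identity is uncertain: besides those marked in the text, these include Ctrl, Klk1, Kif22, Pttg1, Mcm3, Pold2 and Pla2g12a. Of 58 further tested probe sets of called genes, 46 had the sign of the one used and 11 were called. Alternatives were another offset (1 or 128), another filter (none or 200), quantile normalization, no trend, robust eBayes, the letters a and b as a replicate block, each array left out, and fits without the later ages or without their male arrays. The letters did not pair the sexes: deviations from the group means correlated at −0.07, −0.01 and −0.01 at the 3 ages.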

Additional observations from a re-analysis of the deposited data

Results flagged for a closer look

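Each of these genes differed between ages in its male minus female difference in limma's test, and was among the 10 smallest p of that test. Values are the difference at 3-4 weeks minus that at the later age, on the log2 scale.

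Against 6-9 weeks, more positive at 3-4 weeks were the granule genes Ltf (1.96, SE 0.15, adjusted p = 0.000143), Camp (1.93, SE 0.15, adjusted p = 0.000143), Ngp (1.60, SE 0.16, adjusted p = 0.000873) and Prtn3 (1.58, SE 0.18, adjusted p = 0.0012). Usp18, which removes Isg15, was more positive as well (1.42, SE 0.15, adjusted p = 0.000873). More negative at 3-4 weeks were the pancreas genes Klk1 (−1.49, SE 0.14, adjusted p = 0.000722), Reg2 (−1.81, SE 0.18, adjusted p = 0.000873) and Reg3a (−1.59, SE 0.16, adjusted p = 0.000873). So were the immunoglobulin kappa variable genes Igkv14-111 (−1.43, SE 0.16, adjusted p = 0.00118) and Igkv4-68 (−1.13, SE 0.13, adjusted p = 0.0012). The male minus female difference of the granule genes was above 0 at 3-4 weeks and below 0 at 6-9 weeks, while those kappa genes lay within 0.06 of 0 at 3-4 weeks. Klk1 and Igkv14-111 rest on _f_at probe sets.

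Against 24-28 weeks, more negative at 3-4 weeks were Wfdc21 (−3.86, SE 0.17, adjusted p = 8.57e-07), Ifitm6 (−2.46, SE 0.14, adjusted p = 1.92e-06), Ngp (−2.90, SE 0.16, adjusted p = 1.92e-06), Prtn3 (−3.11, SE 0.18, adjusted p = 1.92e-06), Elane (−2.85, SE 0.17, adjusted p = 3.01e-06) and Chil3 (−4.05, SE 0.25, adjusted p = 3.01e-06), all granulocyte genes. More positive were Igkv8-30 (3.07, SE 0.17, adjusted p = 1.92e-06) and Igkv8-19 (2.34, SE 0.14, adjusted p = 3.01e-06), and the pancreas genes Pnliprp1 (2.33, SE 0.15, adjusted p = 5.3e-06) and Sycn (2.57, SE 0.17, adjusted p = 5.6e-06). Wfdc21 gave 10744 and 10318 in males of 24-28 weeks, against 331 and 329 in females and 912 and 890.2 in males at 3-4 weeks. Igkv8-30 and Igkv8-19 rest on _s_at and _f_at probe sets, and near-identical kappa genes could share their signal.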

How the results depend on the processing

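Every one of the 211 calls at 3-4 weeks kept its direction under the 15 alternatives in which it was tested, and 44, 41 higher and 3 lower, kept their call in all. The variance model and the number of arrays moved the counts most. Without the intensity trend 65 autosomal genes were higher and 17 lower at 3-4 weeks, 165 were lower at 6-9 weeks, and 11 and 13 were more positive and more negative against 6-9 weeks. With only the 3-4 week arrays 72 were higher and 21 lower. With each array left out in turn, the 3-4 week counts ranged from 58 to 69 higher and from 14 to 45 lower. Against 6-9 weeks they ranged from 13 to 125 more positive and from 21 to 45 more negative, and against 24-28 weeks from 267 to 308 and from 254 to 321. At 6-9 weeks the ranges were 111 to 164 higher and 130 to 304 lower, and at 24-28 weeks 299 to 387 and 372 to 432. With the letters a and b as a replicate block 116 were higher and 73 lower at 3-4 weeks, and 183 of the 211 calls were kept. Across offsets, filters, quantile normalization and robust eBayes the counts lay between 101 and 135 higher and between 68 and 100 lower. With 2 arrays a group, a difference without a call is not shown to be absent.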

Other observations

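Several genes outside the lists differed at 3-4 weeks with male and female arrays apart. Nampt, which makes NAD, gave 1078 and 1193 in females and 1984 and 1805 in males (0.72, SE 0.11, adjusted p = 0.00421), and the collagenase Mmp13 gave 148 and 161 in females and 343 and 391 in males (1.10, SE 0.20, adjusted p = 0.0129). Casp4, the inflammatory caspase that senses cytosolic lipopolysaccharide, gave 290.2 and 227 in females and 487 and 431 in males (0.76, SE 0.18, adjusted p = 0.0432), and Map3k8, a kinase of innate signalling, gave 82.9 and 113 in females and 273 and 242 in males (1.16, SE 0.20, adjusted p = 0.00801). For these 4 genes both male arrays lay above both female arrays. A second Map3k8 probe set gave 136 and 78.8 in females and 137 and 85.3 in males and was not called (0.05, adjusted p = 0.976). With 1 array left out, calls were lost for Nampt without male a (0.0512), Mmp13 without any of the 4 arrays (0.0944), Casp4 without any of the 4 arrays (0.263) and Map3k8 without female a or male a (0.0736). Lilr4b, an inhibitory receptor of myeloid cells, differed by 0.75 (SE 0.11, adjusted p = 0.00362), and at the later ages by 1.61 at 6-9 weeks and 1.30 at 24-28 weeks. Vnn3, of the vanin family, was dim in females and gave 36.9 and 32.7 in females and 142 and 147 in males (1.40, SE 0.23, adjusted p = 0.006), against 0.04 at 6-9 weeks.

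Called erythroid genes took both directions. Of 20 erythroid membrane and regulatory genes 1 was lower and 0 higher, with a median of −0.07. For 11 of the 20 both male arrays lay below both female arrays and for 3 above, against 24.2% and 21.1% of all genes. The list mean was 11.06 and 10.99 in females and 10.92 and 10.87 in males. Of 13 globin and haem synthesis genes 1 was higher and 0 lower (median −0.02). Gfi1b, a repressor needed in red cell precursors, gave 968 and 1025 in females and 627 and 515 in males (−0.78, SE 0.17, adjusted p = 0.0308) and was lower, as was Tfr2, a transferrin receptor (−0.76, SE 0.17, adjusted p = 0.0396). Bpgm, which makes the haemoglobin regulator 2,3-bisphosphoglycerate, gave 7182 and 7516 in females and 10932 and 10609.6 in males and was higher (0.55, SE 0.10, adjusted p = 0.0145). The summed signal of the 20 erythroid genes was 86877 and 85392 in females and 83233 and 83384 in males. Pold2, a polymerase delta subunit on an _r_at probe set, had the largest drop, with 1001 and 852 in females and 216 and 212 in males (−1.96, SE 0.36, adjusted p = 0.0129), followed by Pla2g12a on an _f_at probe set (−1.64, SE 0.29, adjusted p = 0.0112). Wdfy2 was the 1 lower gene that differed between 3-4 and 6-9 weeks, at −0.75 and 0.66. Of 32 proteasome genes Psmd3 was lower (−0.58), and of 15 complement genes C1qb, named above, was higher. Calls were lost for Gfi1b without any of the 4 arrays (0.188), Tfr2 without any of the 4 arrays (0.176), Bpgm without any of the 4 arrays (0.101), Pold2 without any of the 4 arrays (0.0923), Pla2g12a without female a, female b or male a (0.0944), Wdfy2 without any of the 4 arrays (0.147) and Psmd3 without female a, female b or male a (0.197).

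In limma none of the tested genes was called at 3-4 weeks among 15 plasma cell, 9 early B cell, 10 platelet, 40 stroma and matrix, 17 endothelial, 22 immediate early, 12 cholesterol and 17 glycolysis genes. With an unadjusted p under 0.05, 3, 1, 0, 9, 1, 4, 1 and 3 of these differed, and the medians lay between −0.06 and 0.12.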
